A study of Mus musculus with 6 samples.

Results

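The Wnt ligands of the colon are 10 genes, Wnt2b, Wnt3, Wnt4, Wnt5a, Wnt5b, Wnt6, Wnt9a, Wnt9b, Wnt10a and Wnt11, taken by symbol from a table of 19844 genes in which all 10 were present. The samples were 6 libraries of distal colon from C57BL6 mice that had received azoxymethane, a carcinogen, and dextran sulfate sodium, which injures the colon lining, and that were taken on day 17. There were 3 wild-type and 3 ChREBP knockout mice, all given both agents. ChREBP, the product of Mlxipl, is a transcription factor that responds to glucose, and the study asks how it bears on colon carcinogenesis and the Wnt/beta-catenin pathway. The labels name no promoter, Cre or tissue restriction for the knockout. Levels are FPKM, fragments per kilobase of transcript scaled to the mapped fragments of the library, so they can be compared between genes.

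Wnt proteins are secreted signals that carry a lipid, attached by the acyltransferase Porcn, and are carried to the cell surface by Wls. They bind Frizzled receptors, together with Lrp5 or Lrp6 where beta-catenin is stabilised, or with co-receptors such as Ror2 where signalling runs without beta-catenin. In the colon, Wnt signals keep stem cells in the crypts dividing, and stromal cells below the crypts are a main source of the ligands. Wnt2b, Wnt4, Wnt5a and Wnt5b are known from gut mesenchyme, whereas Wnt3, Wnt6 and Wnt9b are known from gut epithelium.

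All 6 libraries held the epithelial marker Epcam at 685 to 812 FPKM and the intestinal factor Cdx2 at 11.6 to 22.0 FPKM, as colon should. The labels call all 6 mice female, but the Y-linked gene Ddx3y lay between 9.51 and 12.1 FPKM and Xist between 0.020 and 0.040 FPKM in every library. Mlxipl read 5.84 to 7.49 FPKM in wild type and 3.40 to 5.66 FPKM in knockout, so its transcript was present in every knockout library, at levels below those of all wild-type libraries. Its difference did not pass limma over all genes (adjusted p = 0.9995), and the labels do not say which part of the gene was deleted. Depth estimated from short RNAs was 17700000 to 18475000 reads per library.

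Of the ligands, 4 were detected at 1 FPKM or more and 6 lay below that. Averaged over the 6 libraries, Wnt5a stood highest at 4.88 FPKM, followed by Wnt2b at 3.98, Wnt4 at 3.01 and Wnt5b at 1.36 FPKM. Wnt6 at 0.435, Wnt9a at 0.39 and Wnt11 at 0.277 FPKM came next, and Wnt3 at 0.038, Wnt10a at 0.020 and Wnt9b at 0.018 FPKM were close to undetected. Even Wnt5a was a gene of middling level, with 53.0% of the genes in the table at or below it, and Wnt9b had 6.27% at or below it.

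Some neighbours in this order could not be separated. Wnt5a read higher than Wnt2b in 5 of 6 libraries, wild-type replicate 3 being the exception, and Wnt2b read higher than Wnt4 in 5 of 6, knockout replicate 2 being the exception. Wnt4 was above Wnt5b and Wnt5b above Wnt6 in all 6 libraries, by 2.21-fold and 3.13-fold on the means. Wnt6 and Wnt9a each led in 3 libraries, Wnt9a was above Wnt11 in 4 of 6, and Wnt11 was above Wnt3 in all 6, by 7.22-fold on the means. Wnt3 was above Wnt10a in 4 libraries and below it in 1, and Wnt10a and Wnt9b each led in 3.

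**Figure D1:**
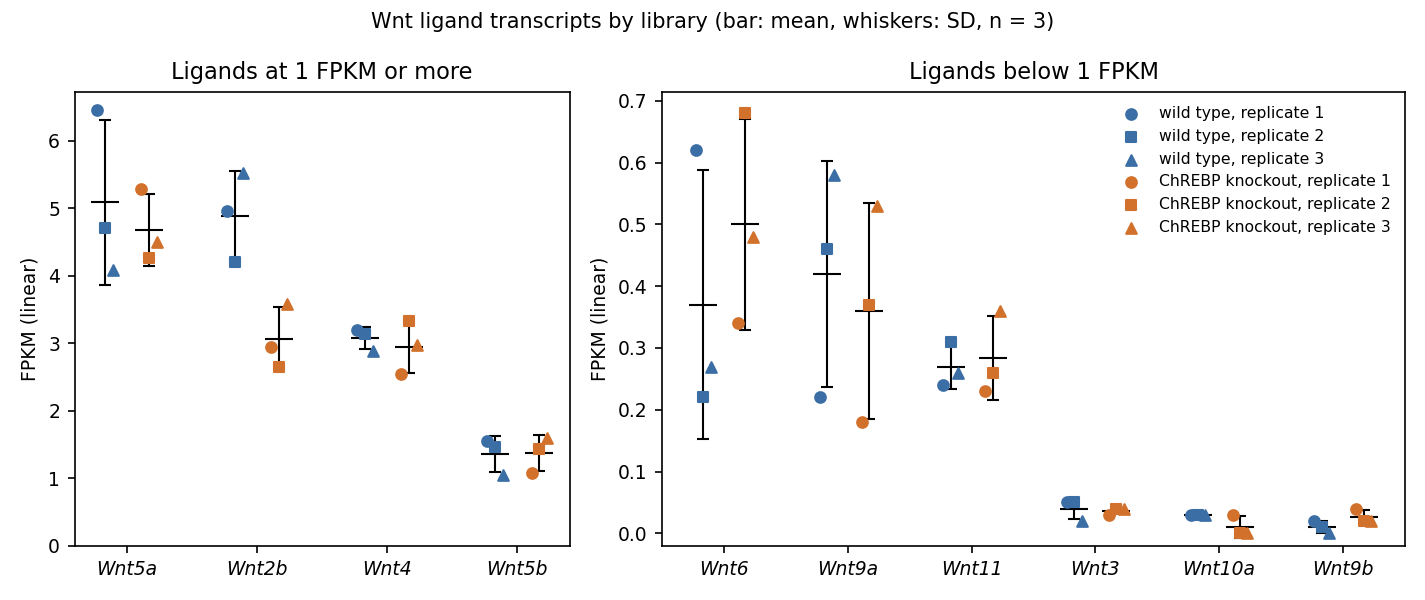
FPKM on linear axes for each of the 10 Wnt ligands, with 1 point per library, a bar at the mean and whiskers of 1 SD (n = 3 per group). The 3 knockout points of Wnt2b, at 2.65 to 3.58, sit below its 3 wild-type points, at 4.20 to 5.52, while the groups of the other ligands overlap or touch.

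None of the 4 ligands that could be tested passed the test of genotype (limma on log2(FPKM + 1), Benjamini-Hochberg adjusted p = 0.9995 for each). In bulk tissue, fewer cells of a type and less RNA per cell cannot be told apart. In the same test, 0.0151% of the 13247 genes passed. At an unadjusted limma p under 0.05 there was 1 ligand, Wnt2b, against 3.4% of all genes. The groups did not overlap in 1 ligand, also Wnt2b, where 4.14% of all genes had every knockout value below every wild-type value. The median log2 fold change of the 4 was -0.067 (3 negative and 1 positive), beside 0.0093 over all genes tested, and 0.022 (an equal number of each sign) without wild-type replicate 1. The other 6 ligands did not reach 1 FPKM in 3 libraries and are described by their values.

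Wnt2b (NCBI gene 22414, chromosome 3), a ligand that acts through beta-catenin, had the smallest p of the ligands. In FPKM and in replicate order, the wild-type mice gave 4.95, 4.20 and 5.52 for Wnt2b, against 2.95, 2.65 and 3.58 in the knockout mice. All 3 knockout libraries lay below all 3 wild-type libraries, with a gap of 0.62 FPKM between the nearest, slightly above the pooled SD of 0.576. Mean Wnt2b was 4.89 ± 0.662 FPKM (SD, n = 3) in wild type and 3.06 ± 0.475 in knockout, which is 62.6% of the former. On the log2(FPKM + 1) scale Wnt2b differed by -0.54 (SE 0.14), with a 95% interval of -0.86 to -0.21, and 0.679% of all genes had a log2 fold change as low or lower. Its unadjusted limma p was 0.00505, and 0.317% of all genes were lower in knockout with an unadjusted p under 0.01. The adjusted limma p of 0.9995 means that the difference did not pass over all genes. At the estimated depth, the Wnt2b values correspond to about 247 to 325 reads in wild type and 158 to 216 in knockout.

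The gene St7l overlaps the Wnt2b gene model in the RefSeq annotation of GRCm38.p6, and the library protocol names no step that keeps strand. St7l read 2.89 to 3.98 FPKM over the 6 libraries, with a log2 fold change of -0.12 (SE 0.13), and its groups overlapped. In the GENCODE annotation of GRCm38, 0 exon bases of Wnt2b are shared with another gene. St7l was not among the genes that overlap Wnt2b there, and exon bases shared in the RefSeq annotation were not counted.

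The start-site region of Wnt2b is shown because Wnt2b had the smallest p of the ligands and ChREBP binds DNA at paired E-boxes. That of Wnt9a is shown because it alone among the ligand windows held CACGTG, a form of the E-box. Other single forms were not searched or marked, such as the CAGGTG in the Wnt2b window. These are the 250 bases before each RefSeq start in GRCm38.p6, written 5′ to 3′ along the gene. Capitals mark matches on either strand to CACGTG, to CTTTGA, the core bound by TCF and LEF factors, and to GGGCGG, the GC box. The Wnt2b window is chr3:104961710-104961959 on the minus strand, and the Wnt9a window is chr11:59306680-59306929 on the plus strand.
Wnt2b: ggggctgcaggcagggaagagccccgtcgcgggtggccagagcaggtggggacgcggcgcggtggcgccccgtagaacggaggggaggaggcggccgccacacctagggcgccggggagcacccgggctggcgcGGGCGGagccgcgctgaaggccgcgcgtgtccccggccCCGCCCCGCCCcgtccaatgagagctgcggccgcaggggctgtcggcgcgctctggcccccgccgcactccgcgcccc
Wnt9a: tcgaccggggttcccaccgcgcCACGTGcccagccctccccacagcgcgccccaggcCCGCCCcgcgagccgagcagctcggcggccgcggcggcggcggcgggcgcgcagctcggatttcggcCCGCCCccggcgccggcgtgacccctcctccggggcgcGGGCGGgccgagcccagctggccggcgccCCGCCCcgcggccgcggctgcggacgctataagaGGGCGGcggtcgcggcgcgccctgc

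The Wnt2b window held 3 GC boxes, a pair of which overlap, and no match to CACGTG or CTTTGA. The Wnt9a window held 1 CACGTG, beginning 228 bases before the start, and 5 GC boxes. Of the ligands, 8 of 10 had an entry, all but Wnt5a and Wnt10a, with 11 windows in all. CACGTG was found in 1 of the 11, against 6.02% of the 32851 windows of the same length in the table. CTTTGA was found in 2 of the 11, 1 each at Wnt5b and Wnt11, against 13.8% of all windows. GGGCGG was found in 9 of the 11 against 32.7%, and the carbohydrate response element consensus in 0 of the 11 against 0.0274%. The GC content of the 11 windows ran from 53.2% to 85.2%, all above the median of 52.4% over all windows, and Wnt2b stood at 80.8%. These matches describe letters in a window and say nothing about binding.

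Wnt9a (NCBI gene 216795, chromosome 11), also a beta-catenin ligand, read 0.22, 0.46 and 0.58 FPKM in wild type and 0.18, 0.37 and 0.53 in knockout. The groups overlapped almost wholly, and the spread within each group, more than 2-fold from lowest to highest, was far wider than the distance between the means of 0.42 ± 0.183 and 0.36 ± 0.175. The values correspond to about 11 to 34 reads.

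Wnt5a (NCBI gene 22418, chromosome 14), the classical ligand of signalling through Ror2, was the most abundant of the 10 in both genotypes. It read 6.45, 4.71 and 4.09 FPKM in wild type and 5.28, 4.26 and 4.50 in knockout. The highest and the lowest library were both wild type, so the knockout values fell inside the wild-type range. Means were 5.08 ± 1.22 and 4.68 ± 0.533 FPKM, a log2 fold change of -0.08 (SE 0.16) with a 95% interval of -0.46 to 0.29. Without wild-type replicate 1, the library that read 6.45, the log2 fold change was 0.071. About 387 to 625 reads lay behind each value, and 4.58% of its annotated exon bases are shared with the antisense gene Gm2670.

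Wnt5b (NCBI gene 22419, chromosome 6), the close relative of Wnt5a, read 1.55, 1.46 and 1.05 FPKM in wild type and 1.08, 1.43 and 1.60 in knockout. Each genotype held a library near 1.05 and others near 1.5, and the groups overlapped throughout. The means were 1.35 ± 0.267 and 1.37 ± 0.265 FPKM, with a log2 fold change of 0.010 (SE 0.15) and a 95% interval of -0.33 to 0.35. The ratio of Wnt5b to Wnt5a was 0.269 ± 0.036 in wild type and 0.299 ± 0.082 in knockout. The sign of the Wnt5b difference is not defined by these data, since it turned negative when each library was brought to an equal sum of FPKM (-0.0054). It did so too without the third wild-type mouse (-0.086), the second knockout mouse (-0.011) or the third knockout mouse (-0.059).

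Wnt4 (NCBI gene 22417, chromosome 4), which can signal with or without beta-catenin, varied least in wild type among the 4 tested ligands. It read 3.20, 3.14 and 2.89 FPKM there, a coefficient of variation of 5.34%, and 2.55, 3.33 and 2.97 in knockout, one of 13.2%. The lowest and the highest library were both knockout. The means were 3.08 ± 0.164 and 2.95 ± 0.390 FPKM, with a log2 fold change of -0.049 (SE 0.12) and a 95% interval of -0.33 to 0.23. Without knockout replicate 1 the log2 fold change was 0.025.

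Wnt11 (NCBI gene 22411, chromosome 7), a ligand of the pathway without beta-catenin, was low, and its highest library stood 1.57-fold above its lowest. It read 0.24, 0.31 and 0.26 FPKM in wild type and 0.23, 0.26 and 0.36 in knockout, about 11 to 17 reads each, and 8.80% of its annotated exon bases are shared with the antisense gene Gm8398. The groups overlapped, with means of 0.27 ± 0.036 and 0.283 ± 0.068 FPKM. Together Wnt4, Wnt5a, Wnt5b and Wnt11 summed to 9.78 ± 1.58 FPKM in wild type and 9.28 ± 0.145 in knockout.

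The ligands known from gut epithelium were low. Wnt6 (NCBI gene 22420, chromosome 1) read 0.62, 0.22 and 0.27 FPKM in wild type and 0.34, 0.68 and 0.48 in knockout. Its highest wild-type library stood inside the knockout range, so the means of 0.37 ± 0.218 and 0.50 ± 0.171 FPKM differed by less than the SD of either group. Wnt3 (NCBI gene 22415, chromosome 11), which Paneth cells supply in the small intestine, read 0.05, 0.05 and 0.02 FPKM in wild type and 0.03, 0.04 and 0.04 in knockout, about 1 to 3 reads per library. Wnt9b (NCBI gene 22412, chromosome 11) read 0.02, 0.01 and 0 FPKM in wild type and 0.04, 0.02 and 0.02 in knockout, at most about 3 reads. The knockout values of Wnt9b began where the wild-type values ended, at 0.02, and counts this small allow no comparison. Wnt3, Wnt6 and Wnt9b together summed to between 0.28 and 0.74 FPKM per library.

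Wnt10a (NCBI gene 22409, chromosome 1), a further beta-catenin ligand, read 0.03 FPKM in all 3 wild-type libraries and in knockout replicate 1, and was listed at 0 in knockout replicates 2 and 3. At the estimated depth 0.03 FPKM is about 1 read, so this pattern is 1 read or none in each library. Its mean cannot be told from that of Wnt9b, and no fold is given.

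**Figure D2:**
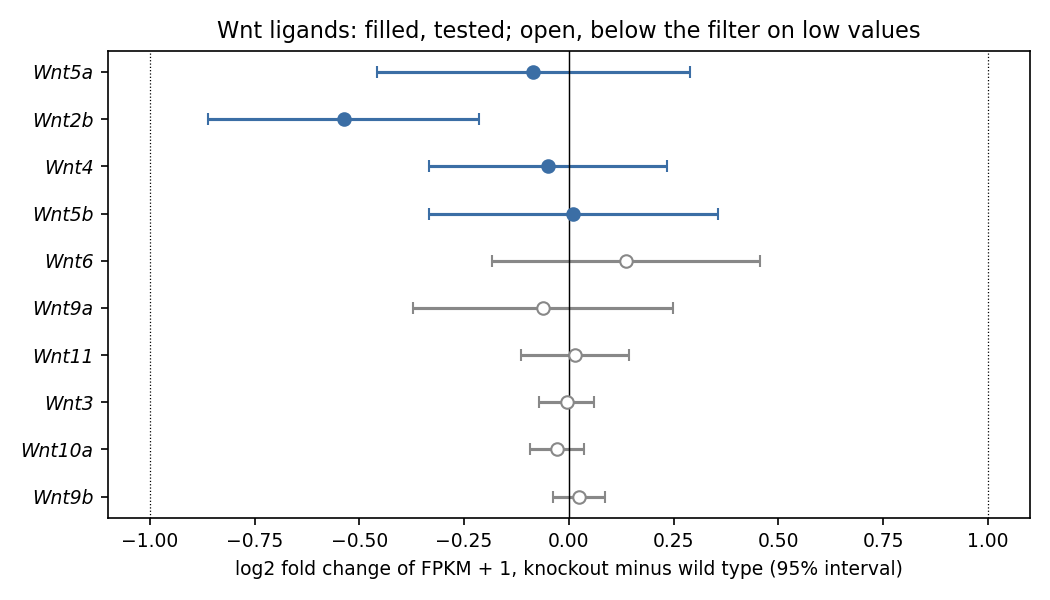
Log2 fold change of FPKM + 1, knockout minus wild type, with limma's 95% interval for each ligand, filled where the gene entered the test and open where it lay below the filter and the interval comes from a fit over all 19844 genes. The interval of Wnt2b, -0.86 to -0.21, lies below 0 and those of the other 9 ligands span 0, with dotted lines at a log2 change of 1 in either direction; the narrow intervals at the bottom reflect low levels on this scale.

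Without the filter, limma over all 19844 genes gave the 6 low ligands log2 fold changes between -0.062 for Wnt9a and 0.14 for Wnt6, with adjusted p values from 0.9861 to 0.9994. At an unadjusted p under 0.05 the count among the 10 ligands was again 1, Wnt2b, against 3.46% of all genes in that fit. On the log2(FPKM + 1) scale the change of such low genes is understated, and for Wnt3, Wnt9b and Wnt10a a difference of genotype was not detectable at this depth.

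Summed over the 10 ligands, transcript levels were 17.33, 14.59 and 14.71 FPKM in wild type and 12.71, 13.04 and 14.08 in knockout. The groups did not overlap, with means of 15.5 ± 1.55 and 13.3 ± 0.715 FPKM, the knockout at 85.4% of the wild type. Leaving Wnt2b out of the sum gave 12.38, 10.39 and 9.19 FPKM in wild type and 9.76, 10.39 and 10.50 in knockout, where the groups overlapped and the knockout stood at 95.9%.

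The make-up of that sum was alike in outline in all 6 libraries. Wnt5a, Wnt2b, Wnt4 and Wnt5b together held 92.6% ± 0.539 of it in wild type and 90.9% ± 2.11 in knockout. Wnt2b held 28.6%, 28.8% and 37.5% in wild type and 23.2%, 20.3% and 25.4% in knockout, without overlap. Wnt5a held 32.4% ± 4.71 and 35.4% ± 5.34, and Wnt4 19.9% ± 1.54 and 22.2% ± 2.91. Wnt6 held between 1.51% and 5.21% of the sum.

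Ratios between ligands do not depend on how a library is scaled. Wnt2b over Wnt4 was 1.55, 1.34 and 1.91 in wild type and 1.16, 0.796 and 1.21 in knockout, so the groups did not overlap. Wnt2b over Wnt5a was 0.767, 0.892 and 1.35 in wild type and 0.559, 0.622 and 0.796 in knockout, and here the highest knockout library passed the lowest wild-type library. Whether the difference in Wnt2b was itself larger than that of another ligand was not tested.

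**Figure D3:**
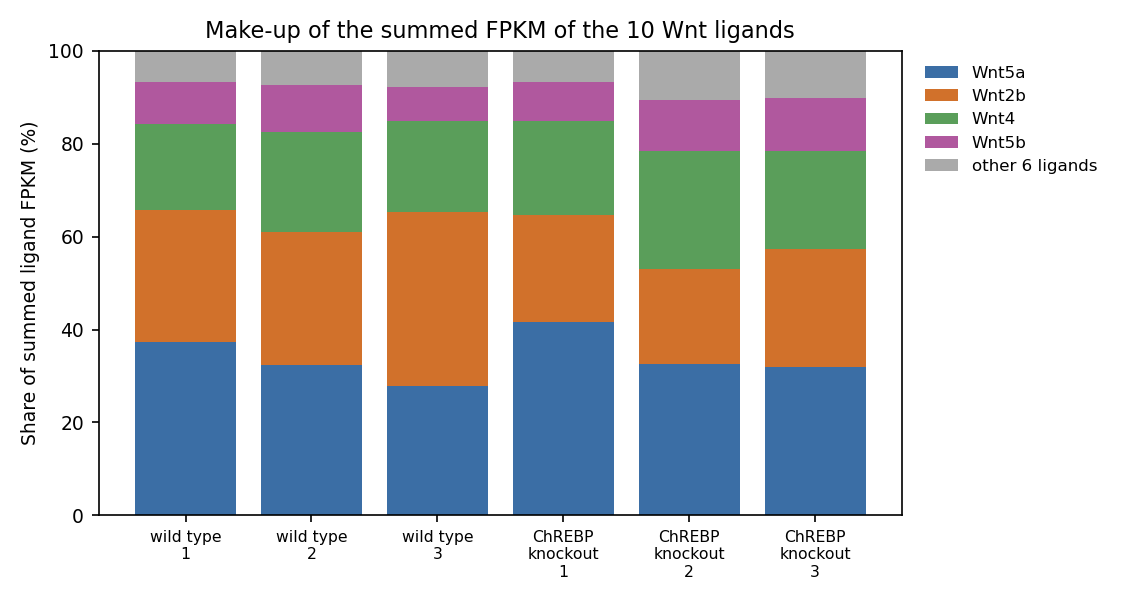
Share of each ligand in the summed FPKM of the 10 Wnt ligands, as stacked bars in percent, 1 bar per library. The Wnt2b segment is 28.6% to 37.5% high in the wild-type bars and 20.3% to 25.4% in the knockout bars, while Wnt5a, Wnt4 and Wnt5b fill most of the rest in every library.

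The 4 ligands above 1 FPKM did not share a pattern across the libraries. Each profile of log2(FPKM + 1) was scaled to mean 0 and SD 1 over the 6 libraries, and likeness was taken as the root mean square difference, where 0 is the same pattern. Wnt4 and Wnt5b were the most alike pair at 0.70, and the other pairs ran from 1.11 for Wnt5a with Wnt5b to 1.35 for Wnt2b with Wnt5b. Among 8946 other genes at a mean of 5 FPKM or more, the closest to Wnt2b were Purb, a nucleic acid binding regulator of transcription, at 0.13, and Fam63b, a deubiquitinase gene, at 0.146. Purb averaged 34.1 ± 1.81 FPKM in wild type and 28.7 ± 1.61 in knockout. The closest to Wnt5a were Papss2, an enzyme that makes the sulfate donor PAPS, at 0.217, and Bpnt1, a phosphatase of the same sulfur pathway, at 0.222. Nsg2, a vesicle protein gene of neurons, lay at 0.207 from Wnt4. Those closest to Wnt5b were Fam189a2 at 0.122 and Cotl1, an actin-binding protein gene, at 0.19. With 6 points and 8946 candidates, close matches arise easily, and all points share their libraries.

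Genes that act with the ligands were given by 6 lists of the pathway, which held 49 different tested genes, 22 with positive and 27 with negative log2 fold changes and a median of -0.028, and 0 passed limma at an adjusted p under 0.05. At an unadjusted limma p under 0.05 there were 3 of the 49, or 6.12%, beside 3.4% of all genes. For lipid attachment and secretion, 10 of 10 genes were tested, 0 passed in either direction, and the median log2 fold change was 0.0069. The lowest p values there belonged to Tmed5, a cargo receptor of the early secretory route, at 9.01 ± 0.794 and 7.72 ± 1.43 FPKM, and to the retromer genes Vps35 (50.8 ± 3.37 and 47.2 ± 1.84) and Vps26a (24.2 ± 0.879 and 22.6 ± 1.14), in wild type and knockout in that order. The summed level of the secretion genes was 566 to 578 FPKM in wild type and 534 to 598 in knockout.

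Frizzled receptors had 7 of 10 genes tested and 0 called, with a median of 0.012. Fzd4 averaged 3.26 ± 0.466 FPKM in wild type and 2.44 ± 0.523 in knockout. All its knockout values were lower, as for 4.14% of all genes, with a gap of 0.04 FPKM and an unadjusted limma p of 0.080. Fzd6 stood at 3.49 ± 0.239 and 4.06 ± 0.268 FPKM, and Fzd5, a Frizzled gene of the gut epithelium, at 19.3 ± 1.61 and 18.1 ± 1.57. Of the co-receptor list 9 of 9 were tested and 0 called, with a median of -0.026. Gpc4, a glypican that holds Wnt proteins at the cell surface, was at 19.7 ± 0.995 and 23.8 ± 0.671 FPKM without overlap, all knockout values being higher, as for 4.53% of all genes (log2 fold change 0.26, SE 0.088). Lrp6, the co-receptor of beta-catenin signalling, stood at 25.1 ± 2.83 and 22.0 ± 2.72 FPKM, and Reck, which with Adgra2 reads Wnt7 ligands, at 3.07 ± 0.162 and 2.75 ± 0.841 FPKM.

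R-spondins strengthen Wnt signals through Lgr receptors. Of that list 5 of 9 were tested and 0 called, with a median of -0.083, and Rspo3, a stromal R-spondin, stood at 2.75 ± 0.583 and 3.75 ± 1.52 FPKM. Lgr5, the R-spondin receptor of crypt stem cells and also a target, stood at 2.64 ± 0.727 and 1.75 ± 0.110 FPKM with overlap between groups. Rnf43, a ligase that removes Frizzled receptors and also a target, stood at 13.5 ± 0.649 and 11.5 ± 0.752 FPKM. All Rnf43 values were lower in knockout, as for 4.14% of all genes, with an unadjusted limma p of 0.054. Secreted inhibitors had 7 of 12 genes tested and 0 called, 6 positive and 1 negative, with a median of 0.069 (4 positive, with a median of 0.0049, without knockout replicate 3). Sfrp1 was at 11.2 ± 0.964 and 12.7 ± 1.92 FPKM, Sfrp2 at 5.97 ± 1.04 and 6.73 ± 0.409, and Wif1 at 1.38 ± 0.382 and 1.18 ± 0.266. Of the target genes 14 of 16 were tested and 0 called, 2 positive and 12 negative, with a median of -0.14. Over all genes tested, 6261 of 13247 were negative. With each library left out in turn, 10 to 13 target genes were negative. The median then ran from -0.21 without knockout replicate 1 to -0.084 without wild-type replicate 2. The summed level of the target genes was 156 to 167 FPKM in wild type and 134 to 150 in knockout, without overlap. Ascl2, a transcription factor of crypt stem cells, stood at 5.44 ± 0.823 and 3.43 ± 0.325 FPKM, also without overlap, with a log2 fold change of -0.54 (SE 0.13). With Lgr5 and Gpc4 it made up the 3 pathway genes at an unadjusted limma p under 0.05, and all 3 had an adjusted limma p of 0.9995.

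**Figure D4:**
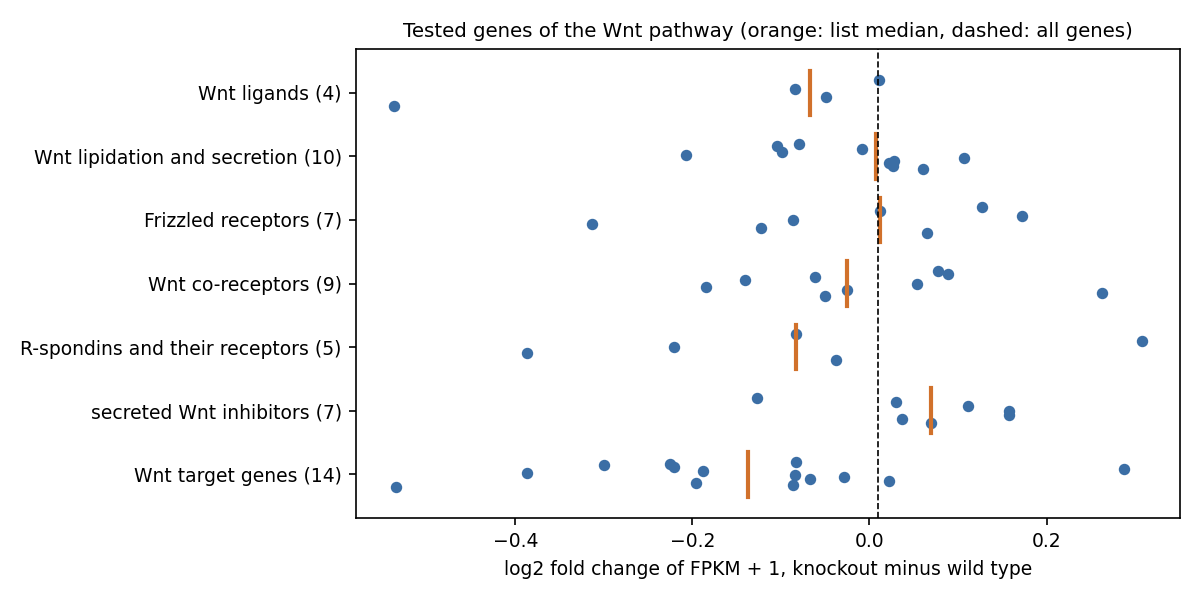
Log2 fold change of FPKM + 1, knockout minus wild type, of every tested gene in the ligand list and 6 pathway lists, with 1 point per gene, an orange line at each list's median, a dashed line at the median of all genes tested, and the number tested in brackets. Wnt2b, at -0.54, stands apart from the other 3 tested ligands, which lie between -0.084 and 0.010.

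Markers of the cells that could hold or dilute ligand transcripts are given beside these values. The 8 fibroblast markers summed to 642 to 818 FPKM in wild type and 717 to 767 in knockout, and Pdgfra was at 13.5 ± 1.92 and 14.1 ± 1.05 FPKM. Log2 fold changes were positive for 7 of 8 fibroblast markers, for 4 without wild-type replicate 2 and for 8 without wild-type replicate 3. Over all genes tested, 6986 of 13247 were positive. The knockout sums of the fibroblast list lay inside the wild-type range. The 7 markers of subepithelial telocytes, stromal cells that lie against the crypts, summed to 65.4 to 77.5 FPKM in wild type and 67.7 to 71.1 in knockout. Of their log2 fold changes, 3 were positive and 4 negative. Foxl1, the defining gene of telocytes, was at 1.74 ± 0.101 and 1.35 ± 0.269 FPKM. All knockout values of Foxl1 lay below all its wild-type values, which held for 4.14% of all genes tested, and its unadjusted limma p was 0.1254. The part of Foxl1 in the Wnt2b result was not tested.

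Smooth muscle markers summed to 2664 to 3637 FPKM in wild type and 2849 to 4350 in knockout, and 8 of 8 log2 fold changes were positive. That count rests on knockout replicate 3, which had the highest sum, and without it 1 of 8 was positive. Epithelial markers summed to 5032 to 5613 and 5081 to 6062 FPKM, endothelial markers to 48.8 to 51.8 and 42.0 to 55.6, and enteric neuron markers to 21.2 to 25.2 and 22.7 to 26.3. Enteric glia markers, at 5.69 to 6.47 and 6.48 to 9.35 FPKM, were the marker list whose groups did not overlap. The median log2 fold change of the 3 tested glia markers was 0.22, and 0.041 without knockout replicate 3. Macrophage and monocyte markers summed to 302 to 425 and 275 to 461 FPKM, and the general leukocyte list to 75.8 to 172 and 95.5 to 129. Mesothelium (0.54 to 6.96 and 0.72 to 5.38 FPKM), adipocyte (0.35 to 2.04 and 0.60 to 3.39) and squamous epithelium markers (1.13 to 3.22 and 1.81 to 7.04) were low and varied severalfold within both genotypes. In these lists 0 markers passed limma at an adjusted p under 0.05 or an unadjusted p under 0.05, 0 markers were at 0 in all libraries, and the part of these lists in the ligand values was not tested.

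**Figure D5:**
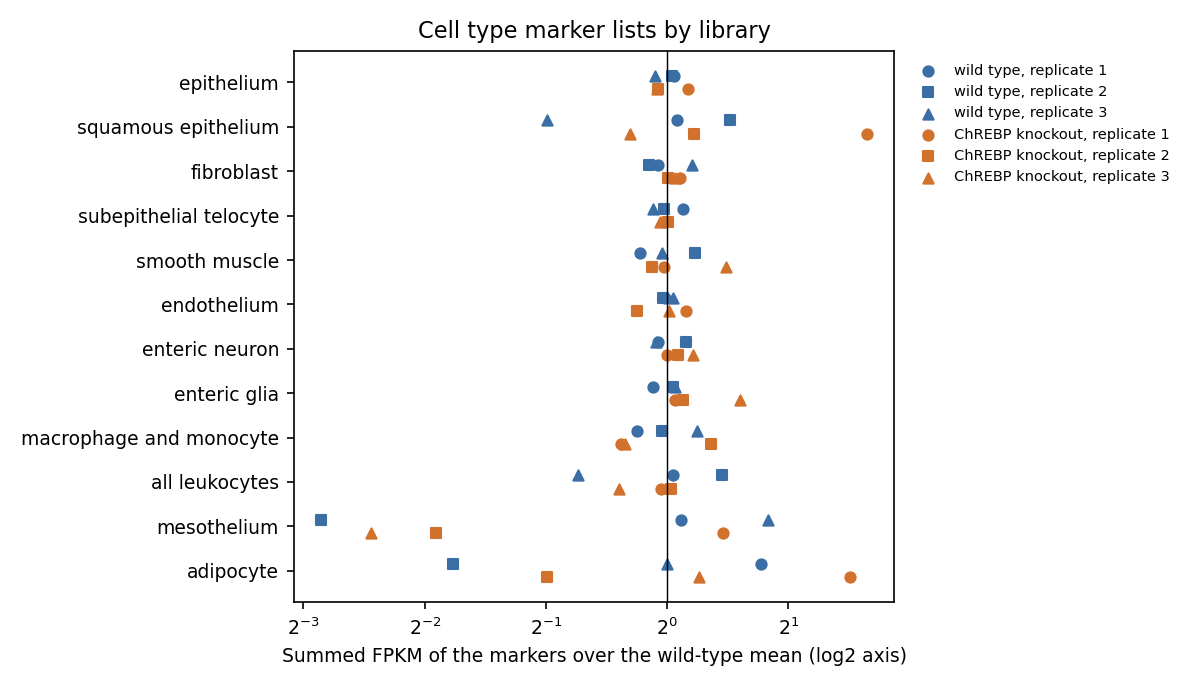
Summed FPKM of each cell type marker list in each library, divided by the wild-type mean of that list, on a log2 axis, with 1 point per library. The fibroblast and telocyte points of both genotypes lie close to 1, and the mesothelium, adipocyte and squamous lists spread most.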

How the data were processed

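Poly-A RNA of 6 distal colon samples was sequenced, 3 per genotype, and each was assigned by its genotype label. The authors deposited FPKM to 2 decimals, 1 column per library. Alignment and quantification tools listed in the submitters' processing notes are HISAT2 and RSEM, with build mm39; their versions are not given in the sources used. The members, lists, tests and alternatives were chosen with earlier results of these data known. Replicates are labelled as separate samples.

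Genes reaching 1 FPKM in 3 or more libraries (13247 of 19844) were tested on log2(FPKM + 1) with limma 3.58.1 in R 4.3.3 (mean-variance trend, two-sided, genotype as sole term, 4 residual degrees of freedom), adjusted by Benjamini-Hochberg over these genes, with 0.05 as the threshold. The fit was tested on simulated data. Of the gene identifiers, 19794 matched the RefSeq table of GRCm38.p6, and 27 symbols turned into dates were restored. Depth came from FPKM steps in 383 RNAs of up to 150 bases, where 80.8% to 85.7% of values fell within 0.05 of whole reads, and reads per ligand from GENCODE transcript lengths (the mean where there were several), so both are estimates. Named genes are the ligands, Mlxipl, up to 3 genes of smallest p per pathway list at a mean of 1 FPKM or more and the 2 genes most like each tested ligand. A result that this rule would name is not reported here. Further Wnt genes, genes used as checks and cell type markers are named beside these. Alternatives were another pseudocount, no filter, rescaled libraries, no trend, a replicate block and each library left out. Protein sequences foreseen for the ligands were not used here. Other steps ran in Python 3.11.15 with pandas 2.3.3, numpy 2.4.6 and, for figures, matplotlib 3.10.9.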

Additional observations from a re-analysis of the deposited data

How the results depend on the processing

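The count of Wnt ligands called by limma was 0 in each of the 12 alternatives, and Wnt2b was in each of them the 1 ligand at an unadjusted p under 0.05. Its log2 fold change stayed negative, between -0.66 with a pseudocount of 0.1 and -0.46 without wild-type replicate 3, and its adjusted limma p ran from 0.7957 to 0.9999. Leaving out a library in turn gave log2 fold changes of -0.63 to -0.46 for Wnt2b, -0.12 to 0.025 for Wnt4, -0.20 to 0.071 for Wnt5a and -0.086 to 0.10 for Wnt5b. Rescaling each library to the same total turned Wnt5b to -0.0054, and the median of all genes from 0.0093 to -0.014. The count of all genes called was 2, and 0 with the replicate number as a replicate block, where 504 genes had an unadjusted limma p under 0.05. Without a library it was 0 to 1, with 323 to 807 genes at an unadjusted p under 0.05. Same-numbered libraries deviated from their group means with correlations of 0.27, -0.096 and 0.063 over genes, and not every library correlated best with its own number. The 0.27 was the highest value between any wild-type and knockout library. No consistent pairing by number was seen, but with 3 libraries per group such correlations cannot exclude it. The block moved no count of ligands. For the 6 low ligands, 4 of 66 values moved by more than the SD between replicates, all with the pseudocount of 0.1, and 7 of 66 differed in sign from the fit without the filter. That SD was taken on log2(FPKM + 1), so the values with the pseudocount of 0.1 were set against an unlike scale. The values with the replicate block and without the filter could not move, being equal to the main ones by construction. At most about 34 reads per library lie behind each of the 6 low ligands. The signs of the pathway and marker lists with each library left out were chosen for recomputing after seeing the data.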

Other observations

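The table held 7 further Wnt genes. Wnt8b (NCBI gene 22423) stood highest among them, at 0.72, 1.13 and 0.70 FPKM in wild type and 0.35, 0.76 and 0.95 in knockout, above the means of Wnt6, Wnt9a and Wnt11. Wnt2, a stromal relative of Wnt2b, read 0.45, 0.22 and 0.32 FPKM in wild type and 0.34, 0.50 and 0.45 in knockout. Its groups overlapped, with means of 0.33 ± 0.115 and 0.43 ± 0.082. Wnt16 read 0.27, 0.41 and 0.31 FPKM in wild type and 0.20, 0.10 and 0.27 in knockout, about 3 to 12 reads per library, and the groups met at 0.27. Wnt10b was listed at 0 in wild-type replicates 1 and 2 and read 0.20 in wild-type replicate 3 and 0.12, 0.05 and 0.17 in knockout. Wnt7b reached at most 0.06 FPKM, Wnt8a 0.04 and Wnt1 0.02, about 3 reads or fewer in any library.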
